A study of Homo sapiens with 4 samples.

Results

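The expression of the metallothioneins, of the zinc-sensing factor that drives them and of the zinc transporters listed with them was described across 4 human prostate cancer cell line libraries. The list named 10 genes, MT1E, MT1F, MT1G, MT1M, MT1X, MT2A, MTF1, SLC39A1, SLC39A6 and SLC30A1, and members were taken as the rows of the gene table with these symbols. Of the 10 listed genes, 8 were found among the 22637 genes of the table, and MT1E and MT1M were not analysed here. The rule uses gene names and no measured value.

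The study sequenced mRNA from LNCaP, a castration-sensitive line, from its olaparib-resistant subline LN-OlapR, from C4-2B, a castration-resistant line of LNCaP lineage, and from its olaparib-resistant subline 2B-OlapR. Olaparib is an inhibitor of PARP enzymes, which act in DNA repair, and the resistant sublines had been raised by long exposure to rising doses of it. The resistant lines were kept in medium with olaparib, and all 4 lines were labelled untreated and, per the labels, plated for RNA without a selection agent. There was 1 library for each line, and no value below has a replicate. Resistant lines were set over their own parents, as the 2B pair (2B-OlapR over C4-2B) and the LN pair (LN-OlapR over LNCaP), and the parental pair set C4-2B over LNCaP. The parental pair shares a library with each of the others, so its ratios are not independent of theirs.

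Metallothioneins are small cysteine-rich proteins that bind zinc and copper in the cytosol, and their transcription is switched on by metals, glucocorticoids and oxidative stress. MTF1 is the zinc-finger transcription factor that senses free zinc and binds metal response elements in the promoters of metallothionein genes and of SLC30A1. The SLC39 (ZIP) proteins carry zinc into the cytosol, the SLC30 (ZnT) proteins carry it out of the cell or into vesicles, and the healthy prostate gland is known for its very high zinc content, which falls in prostate cancer.

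The metal response element core was searched for in the 250 bases upstream of the annotated start of each gene, because MTF1 acts through it and because the metallothioneins were read here as a group. The core was spelled TGCACNC or TGCGCNC and was searched on both strands, with no overlap between matches in the windows of the members. RefSeq promoter windows on GRCh38.p14 were given for 6 of the 8 genes, all except MT1F and MT1G. The starts used are those of these windows and not the GENCODE gene bounds printed below, so some windows overlap those bounds. The windows printed here are those of the 2 abundant metallothioneins, of the zinc exporter and of the importer SLC39A6, 5′ to 3′ on the strand of the gene, with each match in capitals (on the opposite strand a match reads GNGTGCA or GNGCGCA).
MT2A, chr16:56608334-56608583, plus strand: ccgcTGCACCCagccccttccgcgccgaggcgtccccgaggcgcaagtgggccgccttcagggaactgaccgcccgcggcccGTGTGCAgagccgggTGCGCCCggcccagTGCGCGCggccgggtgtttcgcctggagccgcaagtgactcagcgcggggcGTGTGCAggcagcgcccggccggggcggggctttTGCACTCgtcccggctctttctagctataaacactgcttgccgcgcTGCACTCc
MT1X, chr16:56682220-56682469, plus strand: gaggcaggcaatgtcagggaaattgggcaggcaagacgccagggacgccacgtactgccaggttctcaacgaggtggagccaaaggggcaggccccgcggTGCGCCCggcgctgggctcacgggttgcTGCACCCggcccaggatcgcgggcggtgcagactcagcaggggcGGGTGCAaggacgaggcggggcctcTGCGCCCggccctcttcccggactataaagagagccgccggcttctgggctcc
SLC30A1, chr1:211579162-211579411, minus strand: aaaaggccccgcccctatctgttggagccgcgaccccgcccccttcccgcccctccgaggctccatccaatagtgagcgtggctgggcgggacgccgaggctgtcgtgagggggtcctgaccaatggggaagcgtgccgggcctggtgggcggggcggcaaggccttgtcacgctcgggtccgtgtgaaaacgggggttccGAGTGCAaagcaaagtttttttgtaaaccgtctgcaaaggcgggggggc
SLC39A6, chr18:36129341-36129590, minus strand: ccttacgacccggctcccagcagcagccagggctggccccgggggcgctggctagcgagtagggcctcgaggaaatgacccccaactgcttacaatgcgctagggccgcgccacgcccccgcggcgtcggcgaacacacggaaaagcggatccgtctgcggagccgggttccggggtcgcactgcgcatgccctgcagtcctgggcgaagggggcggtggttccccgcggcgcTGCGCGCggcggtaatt

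The window of MT2A held 7 matches, and the window of MT1X held 4. SLC30A1 and SLC39A6 each held 1 match, MTF1 held 0, and SLC39A1 held 1 match in 1 of its windows and 0 in the other. Of 35116 windows of this length, 24.8% held at least 1 match, 0.37% at least 4 and 0.0513% at least 6. A single match was thus common among all genes, and the counts in the MT2A and MT1X windows were rare. A match is a stretch of letters and not a measured binding site.

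**Figure D1:**
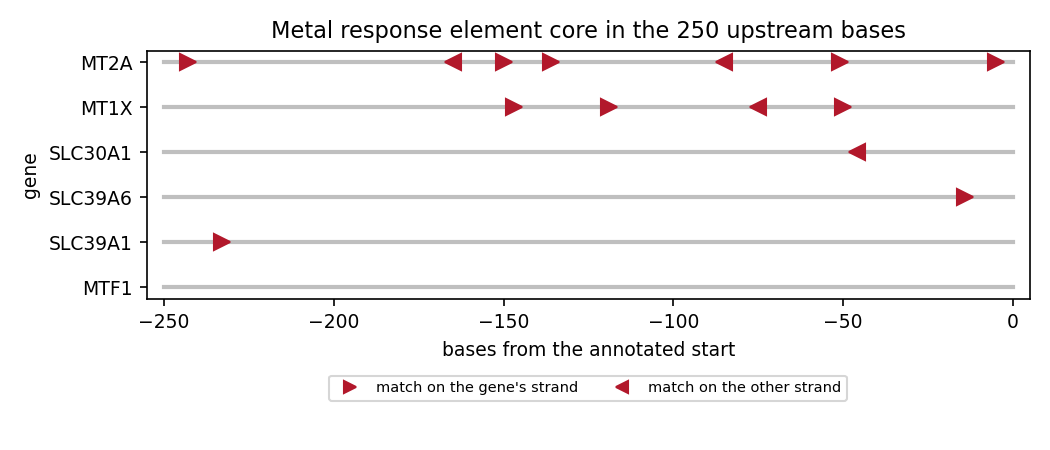
Position of each match to the metal response element core (triangles) in the 250 bases before the start used by the RefSeq windows of 6 genes, in bases from that start, pointing right for the strand of the gene and left for the other strand. MT2A carries 7 matches from -246 to -2 and MT1X 4 from -150 to -47, the window of SLC39A1 drawn is the one with a match, and MTF1 has none.

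Levels are given as CPM (the counts of a gene as a share of its library total) scaled by TMM factors, which adjust for differences in library make-up, and brackets after a log2 ratio hold its 95% interval from counting error alone. Such an interval does not cover the difference between cultures of the same line, so no ratio here was tested. A gene was analysed in a pair when its mean reached 1 CPM, and a change of at least 2-fold (a log2 ratio of 1 or more in size) was called. Totals ran from 19950537 to 26394267 counts. The luminal prostate markers were present in all libraries (9 of 9 found, summed level 3607 to 6917 CPM), but KLK3, the gene of prostate-specific antigen, was at 53.1 CPM in LNCaP against 1870 to 2685 CPM in the other libraries. LNCaP cells are known to express KLK3, so on this marker the library labelled LNCaP stands apart from its label. The LN and parental ratios rest on this library, the 2B ratios do not, and its part in them was not tested. Of the basal list 1 of 3 markers, KRT14, was found (at most 0.557 CPM) and of the immune list 0 of 4. The fibroblast list (2 of 5 found, nearly all of it COL1A1) summed to 16.3 and 16.2 CPM in LNCaP and C4-2B and to 8.32 and 7.19 CPM in LN-OlapR and 2B-OlapR. The endothelial list (1 of 3 found, VWF) stood at 7.29, 4.37, 12.2 and 2.61 CPM in LNCaP, LN-OlapR, C4-2B and 2B-OlapR.

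In the 2B pair 7 members were analysed, 0 were at least 2-fold higher and 1, MT1X, was at least 2-fold lower. Over all 15527 genes analysed in this pair 4.42% were higher and 5.65% lower by this measure. In the LN pair 8 members were analysed, 1 was higher (MT1G) and 1 lower (MT1X), where 4.64% of 15373 genes were higher and 4.83% lower. MT1G entered this count only through LN-OlapR, where it was high, so its call follows from the minimum level and nothing is read from it. In the parental pair 7 members were analysed, 1 was higher (MT1F) and 0 were lower, where 8% of 15580 genes were higher and 7.18% lower. In the 2B, LN and parental pairs the median log2 ratio of the members was -0.42, -0.16 and -0.02, beside medians of -0.00026, -0.0040 and -0.016 over all genes. The LN median includes MT1G and the other medians do not, so they are not over the same genes. MT1X was the only member that passed 2-fold in more than 1 pair.

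**Figure D2:**
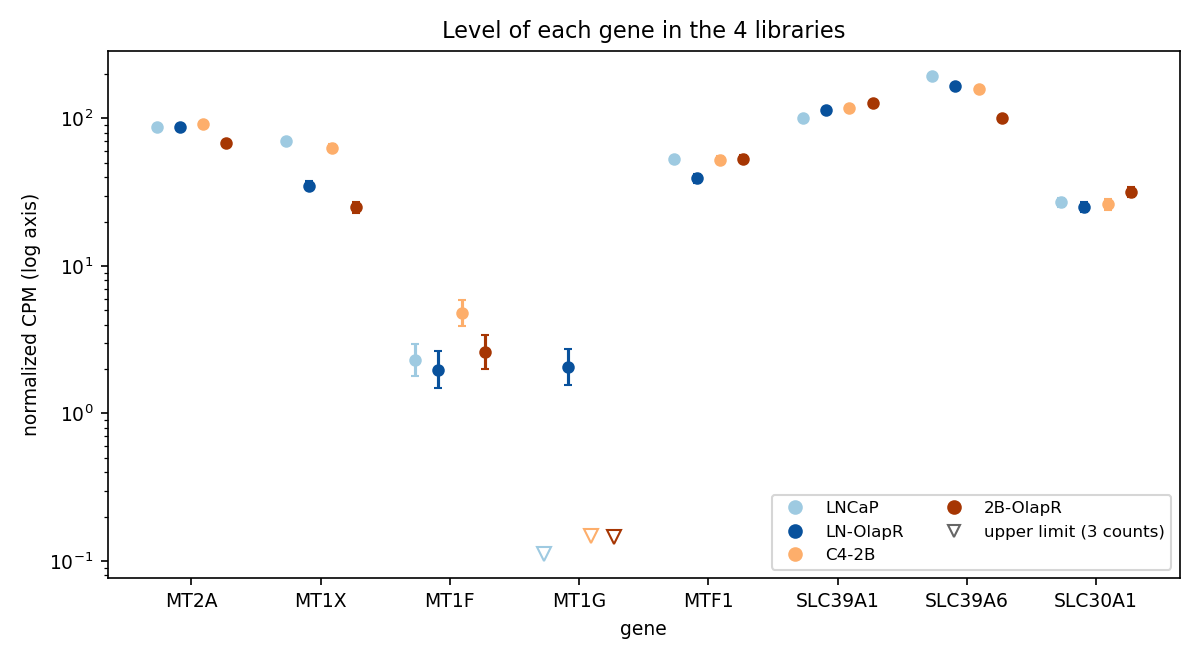
Level of each of the 8 genes in the 4 libraries, in normalized CPM on a log axis, with 95% Wilson intervals from counting error as bars where they exceed the symbol. Open triangles are limits of 3 counts where MT1G had 0 or 1 count. MT1X is lowest in the 2 olaparib-resistant lines, and MT1G is counted above its limit in LN-OlapR alone.

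MT1X, a metallothionein on the plus strand of chromosome 16 (ENSG00000187193.9, GENCODE annotation of GRCh38, chr16:56682424-56684196), had 1904 counts in LNCaP against 816 in LN-OlapR, and 1297 in C4-2B against 517 in 2B-OlapR. Its level was 70.8, 35.0, 63.4 and 24.95 CPM in that order. The counting intervals of the 4 levels did not overlap, and both resistant lines lay below both parental lines. MT1X was 2.54-fold lower in the 2B pair, with a log2 ratio of -1.34 (-1.49 to -1.20). It was 2.02-fold lower in the LN pair, with a log2 ratio of -1.02 (-1.14 to -0.90), so the LN ratio sits at the 2-fold mark within counting error. Between the parental lines the log2 ratio was -0.16 (-0.26 to -0.06). Of all genes analysed, 3.43% had a lower ratio than MT1X in the 2B pair, and 4.72% did in the LN pair. The summed levels of the fibroblast and endothelial lists were also lower in both resistant lines, and their part in the lower MT1X was not tested.

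MT2A, the most widely expressed human metallothionein (ENSG00000125148.7, plus strand, chr16:56608199-56609497), had 2360, 2043, 1865 and 1411 counts in LNCaP, LN-OlapR, C4-2B and 2B-OlapR. Its level was 87.8, 87.6, 91.1 and 68.1 CPM. The intervals of LNCaP, LN-OlapR and C4-2B overlapped, and 2B-OlapR alone lay below them. The log2 ratio of MT2A was -0.42 (-0.52 to -0.32) in the 2B pair, a 1.34-fold lower level. In the LN pair it was -0.00 (-0.09 to 0.08), with no direction, and in the parental pair 0.05 (-0.03 to 0.14). MT2A thus did not reach 2-fold in any pair, and its LN ratio lay in the middle of all genes.

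The difference between these metallothioneins can be read without any scaling between libraries, as the ratio of MT1X to MT2A counts within each library. This ratio was 0.807 in LNCaP against 0.399 in LN-OlapR, and 0.695 in C4-2B against 0.366 in 2B-OlapR. It was lower in each resistant line than in either parental line, and the resistant lines were close to each other. The 2B pair had a log2 change of -0.92 (-1.10 to -0.75), and the LN pair one of -1.01 (-1.16 to -0.87). Between the parental lines it was -0.21 (-0.35 to -0.08). The intervals of the 2B and LN pairs overlapped each other and not that of the parental pair.

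Summed over the 4 metallothioneins found, MT1G included in every library, the level was 161.0 CPM in LNCaP against 126.6 in LN-OlapR, and 159.3 in C4-2B against 95.7 in 2B-OlapR. The parental lines overlapped within counting error, and both resistant lines were lower. The summed level was 1.66-fold lower in the 2B pair, with a log2 ratio of -0.74 (-0.82 to -0.65). It was 1.27-fold lower in the LN pair, with a log2 ratio of -0.35 (-0.41 to -0.28). In the parental pair the log2 ratio was -0.01 (-0.08 to 0.05). Neither sum reached 2-fold, and the sum holds neither MT1E nor MT1M.

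MT1X made up 44.0% of the summed metallothionein counts in LNCaP (95% Wilson interval 42.5% to 45.5%) against 27.6% in LN-OlapR (26.0% to 29.3%), and 39.8% in C4-2B (38.1% to 41.5%) against 26.1% in 2B-OlapR (24.2% to 28.05%). The share of MT2A was 54.5%, 69.2%, 57.2% and 71.2% in the same order. MT2A was the larger part of the pool in every library, by a wider margin in the resistant lines. MT1F supplied 1.43% to 3.01% of the pool.

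**Figure D3:**
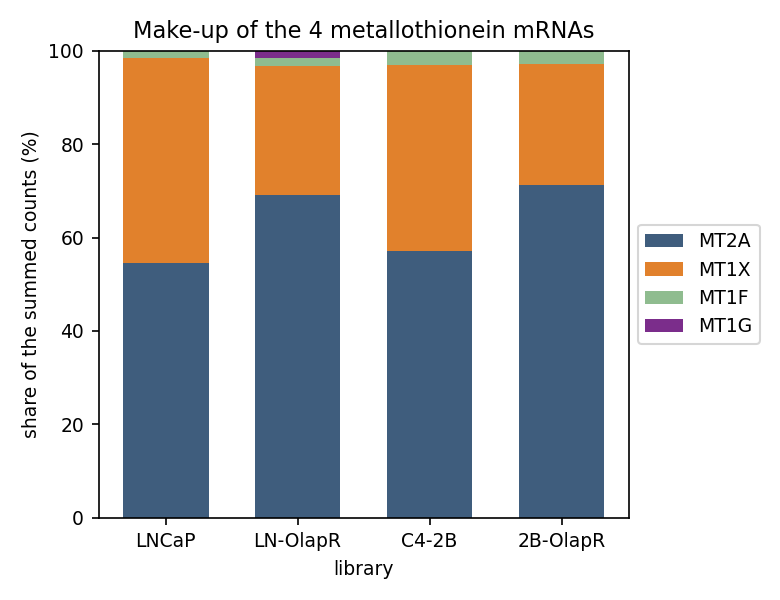
Share of the summed counts of MT2A, MT1X, MT1F and MT1G in each library, in percent, as stacked bars from 0 to 100%. The share of MT1X is 27.6% in LN-OlapR against 44.0% in its parent LNCaP, and 26.1% in 2B-OlapR against 39.8% in its parent C4-2B, and that of MT2A is larger in both resistant lines.

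MT1F, a further metallothionein of the cluster (ENSG00000198417.7, plus strand, chr16:56657694-56660698), was scarce, with 62 counts in LNCaP against 46 in LN-OlapR, and 98 in C4-2B against 54 in 2B-OlapR. Its level was 2.31, 1.97, 4.79 and 2.61 CPM. C4-2B stood above the other libraries, whose intervals overlapped. MT1F was 2.07-fold higher in C4-2B than in LNCaP, with a log2 ratio of 1.05 (0.59 to 1.51). The 2B pair had a log2 ratio of -0.87 (-1.35 to -0.39), and the LN pair one of -0.22 (-0.77 to 0.33). The width of these intervals follows from the low counts, and a 2-fold change could not be told from a smaller one.

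MT1G (ENSG00000125144.14, minus strand, chr16:56666731-56668065) had 1 count in LNCaP against 48 in LN-OlapR, and 0 counts in C4-2B against 1 in 2B-OlapR. LN-OlapR was the only library above the floor of 3 counts, at 2.06 CPM (1.55 to 2.73). A count of 0 in C4-2B allows up to 0.147 CPM. From 1 count to 48 the ratio in the LN pair was 37.3-fold, with a log2 ratio of 5.22 (2.88 to 7.56). This ratio depends on the pseudocount, and with 2 counts in place of 0.5 it was 4.26. No ratio is given for the other pairs, in which both libraries were at or under the floor. Even in LN-OlapR MT1G supplied 1.63% of the summed metallothionein counts. MT1G passed the minimum level in the LN pair only through LN-OlapR, so its ratio is not ranked among the members. Outside LN-OlapR it had the lowest level of any member.

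Metallothionein genes share stretches of sequence, and how the authors' counting treated reads that fit several genes is not given in the sources used here. In the longest GENCODE release 29 transcripts, 14.7% of the 50-base words of MT1X, 14.3% of those of MT1G, 4.68% of those of MT2A and 0.0656% of those of MT1F also occur in another gene. In the longest coding transcript of the basic set, the shares were 55.8% for MT1X, 14.3% for MT1G, 4.88% for MT2A and 3.59% for MT1F. The words of that MT1X transcript were shared with a single gene without an approved symbol, which overlaps MT1X on the same strand and was not analysed here, and 50.8% were shared with it at 100 bases. At 100 bases MT1G, MT2A and MT1F shared 0 words in either set. How far this sharing moved the counts was not measured. Other metallothionein sequences had few counts. MT3, the brain metallothionein, had 1, 1, 6 and 4 counts in LNCaP, LN-OlapR, C4-2B and 2B-OlapR. The pseudogene MT1XP1 had 8, 5, 20 and 13 counts, and the pseudogene MT2P1 had 11, 5, 22 and 13.

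MTF1, the zinc-sensing transcription factor (ENSG00000188786.10, minus strand, chr1:37809567-37859620), had 1424 counts in LNCaP against 914 in LN-OlapR, and 1069 in C4-2B against 1107 in 2B-OlapR. Its level was 53.0, 39.2, 52.2 and 53.4 CPM. LNCaP, C4-2B and 2B-OlapR overlapped, and LN-OlapR lay below them. The log2 ratio of MTF1 was -0.43 (-0.55 to -0.31) in the LN pair, a 1.35-fold lower level. In the 2B pair it was 0.03 (-0.09 to 0.15) and in the parental pair -0.02 (-0.13 to 0.09), neither with a direction. MT1X was lower in the LN pair, where the MTF1 mRNA was lower, and in the 2B pair, where it was level. The link between them was not tested. The activity of the MTF1 protein was not measured.

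SLC39A6, the importer ZIP6 (ENSG00000141424.13, minus strand, chr18:36108532-36129385), had 5182 counts in LNCaP against 3880 in LN-OlapR, and 3220 in C4-2B against 2076 in 2B-OlapR. Its level was 192.8, 166.3, 157.4 and 100.2 CPM. LNCaP was highest and 2B-OlapR lowest, while LN-OlapR and C4-2B overlapped. The log2 ratio of SLC39A6 was -0.65 (-0.73 to -0.57) in the 2B pair, a 1.57-fold lower level. It was -0.21 (-0.27 to -0.15) in the LN pair and -0.29 (-0.36 to -0.23) in the parental pair. SLC39A6 was lower in each pair and did not reach 2-fold in any.

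SLC39A1, the importer ZIP1, through which prostate cells are known to take up zinc (ENSG00000143570.19, minus strand, chr1:153959099-153968184), had 2708, 2668, 2416 and 2640 counts in LNCaP, LN-OlapR, C4-2B and 2B-OlapR. Its level was 100.7, 114.4, 118.1 and 127.4 CPM. LNCaP was lowest, and the neighbouring levels above it overlapped. The log2 ratio of SLC39A1 was 0.11 (0.03 to 0.19) in the 2B pair, 0.18 (0.11 to 0.26) in the LN pair and 0.23 (0.15 to 0.31) in the parental pair. SLC39A1 was thus slightly higher in each pair, by 1.08-fold, 1.14-fold and 1.17-fold. Of the 50-base words of SLC39A1, 71.3% also occur in a gene without an approved symbol that overlaps it on the same strand and was not analysed here.

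SLC30A1, the plasma membrane exporter ZnT1 and itself a target of MTF1 (ENSG00000170385.10, minus strand, chr1:211571568-211578742), had 727, 584, 537 and 661 counts in LNCaP, LN-OlapR, C4-2B and 2B-OlapR. Its level was 27.0, 25.04, 26.2 and 31.9 CPM. 2B-OlapR stood above the others, which overlapped. The log2 ratio of SLC30A1 was 0.28 (0.12 to 0.45) in the 2B pair, a 1.22-fold higher level. It was -0.11 (-0.27 to 0.05) in the LN pair and -0.04 (-0.20 to 0.12) in the parental pair. In the same pair MT1X, MT2A and MT1F were lower, and the part of MTF1 in these levels was not tested.

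**Figure D4:**
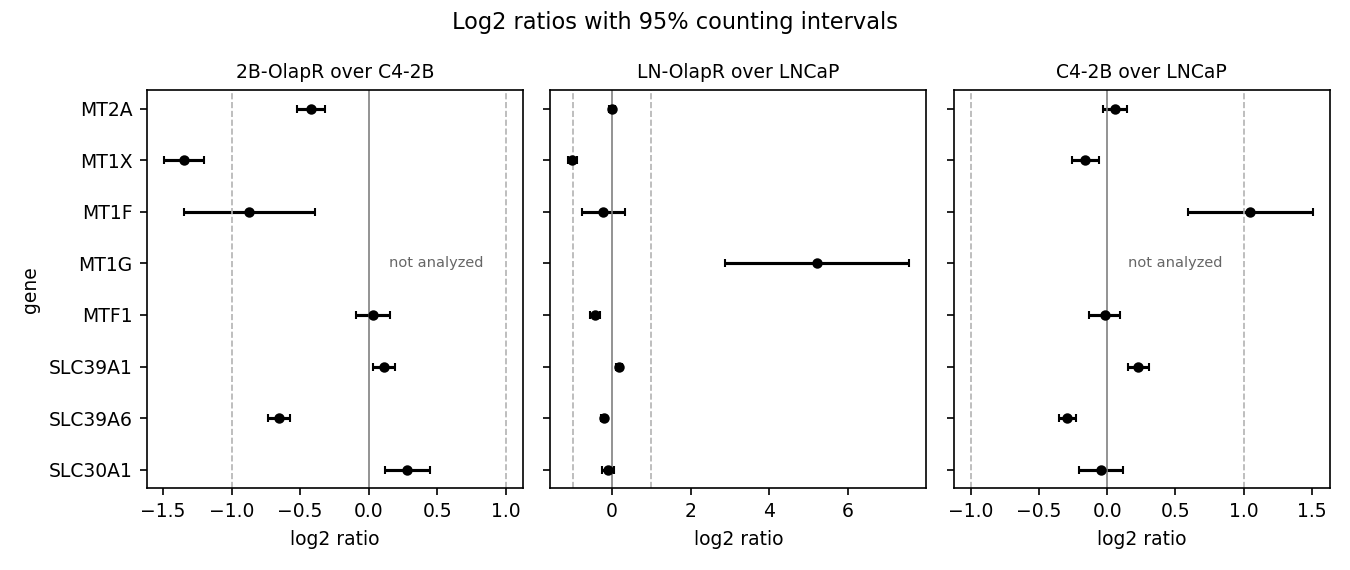
Log2 ratio of each gene in the 2B, LN and parental pairs (points), with 95% counting intervals as bars and 2-fold marked by dashed lines, each panel on its own axis. MT1X lies beyond the lower 2-fold line in the 2B pair at -1.34 and at it in the LN pair at -1.02, MT1G in the LN pair spans 2.88 to 7.56, and MT1G was not analysed in the other pairs.

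The 2B and LN pairs share no library, so the difference of their log2 ratios could be taken with its counting interval. The 2B ratio was lower than the LN ratio for MT1X by a log2 difference of -0.33 (-0.52 to -0.14), for MT2A by -0.42 (-0.55 to -0.29) and for SLC39A6 by -0.44 (-0.54 to -0.34). It was higher for MTF1, with a difference of 0.47 (0.30 to 0.64), and for SLC30A1, with 0.39 (0.17 to 0.62). For SLC39A1 the difference was -0.07 (-0.18 to 0.04) and for MT1F -0.65 (-1.38 to 0.08), both within counting error. No member moved in opposite directions in the 2 pairs by more than counting error in each. MT1X and SLC39A6 were lower in both pairs and further down in the 2B pair.

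Levels of different genes were compared per kilobase of transcript, and the length matters for the short metallothioneins. In every library, and with the longest transcript, the longest coding sequence or the longest coding transcript of the basic set as the length, MT2A, MT1X, SLC39A1 and SLC39A6 lay above MTF1, SLC30A1, MT1F and MT1G. Per kilobase of longest transcript, MT2A stood at 97.2, 97.0, 100.9 and 75.4 CPM in LNCaP, LN-OlapR, C4-2B and 2B-OlapR. MTF1 stood at 6.64, 4.92, 6.55 and 6.70 CPM per kilobase and SLC30A1 at 4.94, 4.57, 4.79 and 5.83. MTF1 was above SLC30A1 under each length, but not beyond counting error in every library and length. The order among MT2A, MT1X and the importers changed with the length used.

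Among the other zinc importers of the SLC39 family, 9 of 12 listed genes were analysed. In the 2B pair 0 were at least 2-fold higher and 0 lower, with a median log2 ratio of 0.25, and in the LN pair 1 was higher and 0 lower, with a median of 0.11. Over all genes analysed, 4.42% were higher and 5.65% lower in the 2B pair, where the median was -0.00026. For the LN pair 4.64% of all genes were higher and 4.83% lower, with a median of -0.0040. SLC39A8, the importer ZIP8 of zinc, iron and manganese, stood at 27.1 CPM in LNCaP against 57.1 in LN-OlapR, and 148.8 in C4-2B against 259.4 in 2B-OlapR. The level of SLC39A8 was higher in each resistant line than in its parent and higher in the C4-2B lineage than in the LNCaP lineage. Its log2 ratio was 0.80 (0.74 to 0.87) in the 2B pair, 1.08 (0.95 to 1.21) in the LN pair and 2.46 (2.34 to 2.57) in the parental pair. The lowest ratios of the list were -0.46 (-0.61 to -0.31) for SLC39A4, the intestinal zinc importer ZIP4, in the 2B pair and -0.13 (-0.37 to 0.11) for SLC39A13 in the LN pair.

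Of the other zinc exporters, 9 of 10 listed genes were in the table, of which the 2B pair had 6 analysed and the LN pair 5. In the 2B pair 1 was at least 2-fold higher and 1 lower, with a median log2 ratio of 0.16, and in the LN pair 0 were higher and 0 lower, with a median of 0.13. Among all genes 4.42% were higher and 5.65% lower in the 2B pair, and 4.64% and 4.83% in the LN pair. Their medians were -0.00026 and -0.0040. SLC30A4, the vesicular transporter ZnT4, had levels of 233.0, 196.6, 190.7 and 92.5 CPM in LNCaP, LN-OlapR, C4-2B and 2B-OlapR. The level of SLC30A4 was lowest in 2B-OlapR, with a log2 ratio of -0.25 (-0.30 to -0.19) in the LN pair and -1.04 (-1.12 to -0.96) in the 2B pair. TMEM163, a zinc transporter outside the SLC30 family, rested on counts of 15 and 53 in the 2B pair, with a log2 ratio of 1.77 (0.95 to 2.58). Only the resistant line of this pair reached 1 CPM for TMEM163, at 2.56 against 0.733 for its parent. The exporter counted as higher thus passed the minimum through that line alone, and nothing is read from its call. In the LN pair the highest ratio was 0.22 (0.12 to 0.32) for SLC30A5 and the lowest -0.52 (-0.60 to -0.44) for SLC30A9. SLC30A5 works in the early secretory pathway and SLC30A9 in mitochondria.

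**Figure D5:**
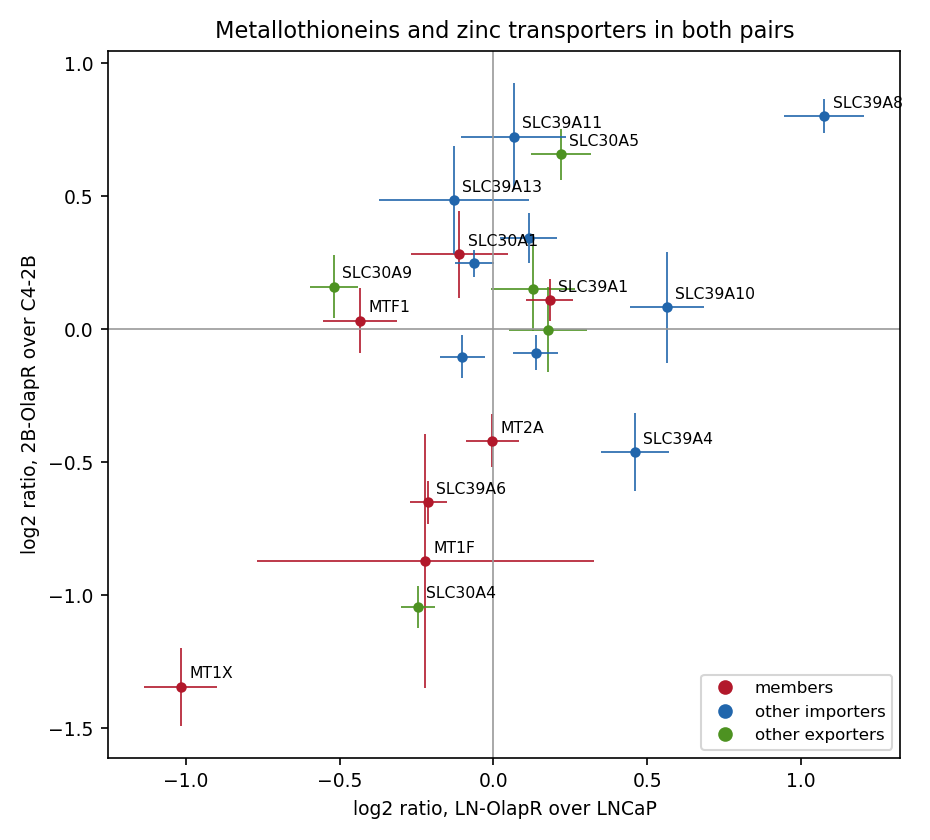
Log2 ratio in the 2B pair against that in the LN pair for the members (red) and the other zinc importers (blue) and exporters (green) analysed in both pairs, with 95% counting intervals as bars and MT1G left out. MT1X lies lowest on both axes at -1.34 and -1.02, and SLC39A8 highest on both at 0.80 and 1.08.

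Copper and iron genes were set beside the zinc genes because metallothioneins also bind copper and because some importers carry iron. Over all genes 4.42% were at least 2-fold higher and 5.65% lower in the 2B pair (median -0.00026), and 4.64% and 4.83% in the LN pair (median -0.0040). Of 12 copper-handling genes analysed, 0 were at least 2-fold higher and 0 lower in the 2B pair (median 0.03), and 1 was higher and 2 lower in the LN pair (median 0.06). The metalloreductase STEAP4 had a log2 ratio of 2.55 (1.91 to 3.19) in the LN pair from 23 and 119 counts. STEAP4 was at 0.856 CPM in LNCaP and 5.10 in LN-OlapR. It thus passed the minimum only through LN-OlapR, and nothing is read from its call. The transporter SLC31A2 had -1.22 (-1.99 to -0.44) in the LN pair from 49 and 18 counts, and was the highest of the list in the 2B pair at 0.83 from 27 and 49 counts. In the LN pair only LNCaP reached 1 CPM for SLC31A2, at 1.82 against 0.772 in LN-OlapR. The copper exporter ATP7A had -1.001 (-1.17 to -0.84) in the LN pair, and ATP7B was the lowest in the 2B pair at -0.55 (-0.80 to -0.31). Of the iron-handling genes, the 2B pair had 10 analysed and the LN pair 9, and none reached 2-fold in either (medians -0.04 and -0.12). The ferritin light chain gene FTL was the lowest in the 2B pair at -0.82 (-0.90 to -0.74) and the aconitase and iron sensor ACO1 the highest at 0.68 (0.54 to 0.82). In the LN pair the ferritin heavy chain gene FTH1 was the highest at 0.39 (0.37 to 0.41) and the iron importer SLC11A2 the lowest at -0.37 (-0.46 to -0.28).

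Glucocorticoids induce metallothioneins as well as a set of well-known target genes, of which 8 of 10 listed were analysed. In the 2B pair 1 was at least 2-fold higher and 0 lower (median 0.21), and in the LN pair 3 were higher and 0 lower (median 0.56). The shares over all genes were 4.42% higher and 5.65% lower in the 2B pair (median -0.00026). For the LN pair these shares were 4.64% and 4.83% (median -0.0040). SGK1, a kinase, was higher in both pairs, at a log2 ratio of 1.76 (1.23 to 2.30) in the LN pair from 37 and 110 counts, and 1.15 (0.67 to 1.62) in the 2B pair from 51 and 115 counts. TSC22D3, the gene of the leucine zipper protein GILZ, had levels of 37.7, 159.6, 39.2 and 24.4 CPM in LNCaP, LN-OlapR, C4-2B and 2B-OlapR. LN-OlapR stood far above the other libraries, and the log2 ratio was 2.08 (1.98 to 2.18) in the LN pair and -0.68 (-0.85 to -0.52) in the 2B pair, where it was the lowest of the list. FKBP5, which androgens also induce, had 1.18 (1.14 to 1.23) in the LN pair and -0.60 (-0.66 to -0.55) in the 2B pair, and the clock gene PER1 was the lowest in the LN pair at -0.54 (-0.71 to -0.38). MT1G was counted in LN-OlapR, the library in which TSC22D3 was highest, and the link between them was not tested.

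The genes whose pattern over the 4 libraries was most like that of the summed metallothioneins were YBX3, ZBTB39, ABCB10, PRR3 and BLVRA. Likeness was the smallest Euclidean distance between log2 levels centred on their mean, over the 10134 genes whose mean reached 10 CPM. YBX3 was nearest, at a distance of 0.0415 where the median gene lay at 0.775, with 202.7, 160.2, 199.0 and 124.2 CPM in LNCaP, LN-OlapR, C4-2B and 2B-OlapR. The distance of the fifth gene, BLVRA, was 0.0769. With 4 libraries many genes share such a pattern, and the genes are named as a description.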

How the data were processed

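Each cell line gave 100 ng of total RNA for 1 stranded mRNA library after 48 hours of plating per the labels, where the study's methods give a longer time. The authors deposited estimated counts per gene, not scaled between libraries, of which 45.99% have a fractional part and 36.4% lie more than 0.01 from a whole number, and no gene sums to under 10 over the libraries. The submitters' processing notes name STAR, Partek and GRCh38 (hg38) with no role. The tool that counted and its annotation are not given in the sources used here.

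The counts were rounded, and CPM were scaled by TMM factors (edgeR 4.0.16, R 4.3.3). Ratios and intervals were computed in Python 3.11.15 with numpy 2.4.6, pandas 2.3.3 and SciPy 1.17.1, with a pseudocount of 0.5 counts. Genes with a mean of at least 1 CPM over a pair were analysed. Intervals at the 95% level are normal for ratios and Wilson for levels and shares, and they and the floor of 3 counts cover counting error only. With 1 library per line no p-value was computed. Steps were tested on simulated data.

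The members and lists were chosen with earlier results of these data known. Named are the members, the other metallothioneins analysed, the highest and lowest ratio of each other list per resistant pair, list genes past 2-fold in both, and the 5 genes most like the summed metallothioneins. KLK3, KRT14, COL1A1, VWF, ATP7A, FKBP5, and the neighbouring genes were named after their values were seen. Alternatives were total counts, upper quartile and DESeq2 1.42.0 size factors for scaling, a pseudocount of 2, minimum means of 0.1 and 10 CPM, and other gene lengths, of which the basic set was added after seeing the data. Gene positions are from GENCODE release 29.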

Additional observations from a re-analysis of the deposited data

Results flagged for a closer look

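Of the genes named from the other lists, the following were higher in one resistant pair and lower in the other by more than counting error in each, with 1 library per line, so the difference was not tested against replicates. No member did so. As the log2 ratio of the 2B pair minus that of the LN pair, the difference was -0.92 for the zinc importer SLC39A4, 0.68 for the mitochondrial transporter SLC30A9, 2.05 for the copper transporter SLC31A2 and -1.01 for the copper exporter ATP7B. It was -0.99 for FTL and 0.80 for ACO1 among the iron genes, and -1.79 for FKBP5 and -2.77 for TSC22D3 among the glucocorticoid-induced genes.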

How the results depend on the processing

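Of 96 ratios of members recomputed under 3 other scalings and a pseudocount of 2, 94 stayed within their counting interval. Of those whose interval excluded 0, 0 changed sign. The exceptions came with total counts in place of TMM, in the LN pair, 0.10 for SLC39A1 and -0.30 for SLC39A6. The 96 include MT1G in the 2B and parental pairs, where its wide interval held every value. The ratio of MT1X stayed past 2-fold in the LN pair, between -1.10 and -1.01, and in the 2B pair, between -1.39 and -1.32. The summed metallothionein ratio of the LN pair became -0.43 with total counts. The cause was not tested. At a minimum mean of 0.1 CPM, 1956 genes were at least 2-fold higher and 2220 lower in the 2B pair. The LN pair had 2011 and 1983, and the parental pair 2809 and 2495. At 10 CPM these were 163 and 256, 196 and 192, and 424 and 348, with fewer genes analysed. At 10 CPM 0 members were higher in the LN pair and 0 in the parental pair, since MT1G and MT1F were left out by the minimum. The small ratios of MT2A in the LN pair, of MTF1 in the 2B and parental pairs and of the summed metallothioneins in the parental pair changed sign between scalings.

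No replicate was left out, since each line has 1 library, and no fit over both lineages was made. Counting intervals do not cover differences between cultures, RNA preparations or passages, so a line and its library cannot be told apart. Depth limits MT1F and MT1G most.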

Other observations

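Genes around the members were looked at after the values of the members were seen. Of 12 other genes analysed within 500 kb of the metallothionein cluster on chromosome 16 in the 2B pair, 10 had a log2 ratio below 0, with a median of -0.48, where 50.02% of all genes lay below 0. Among them NUP93, a nuclear pore gene, was at -1.28 (-1.36 to -1.20) and CPNE2 at -1.25 (-1.52 to -0.97), while GNAO1 and NLRC5 were at 1.76 (0.97 to 2.55) and 1.35 (0.72 to 1.97). In the LN pair 7 of 11 were below 0, with a median of -0.14, where 50.4% of all genes lay below 0. NUP93 was at -0.63 (-0.70 to -0.56) in the LN pair.

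Around SLC39A6 on chromosome 18, 6 of 6 other genes analysed within 500 kb had a log2 ratio below 0 in the 2B pair, with a median of -0.52. In the LN pair 6 of 7 were below 0, with a median of -0.15, and in the parental pair 6 of 7, with a median of -0.59. Of all genes, 50.02%, 50.4% and 51.4% lay below 0 in the 2B, LN and parental pairs. ELP2, an Elongator subunit gene that lies within 1 kb of SLC39A6 on the opposite strand, was at -0.61 (-0.73 to -0.49) in the 2B pair, -0.18 (-0.28 to -0.08) in the LN pair and -0.19 (-0.29 to -0.09) in the parental pair. The ratios of SLC39A6 itself were -0.65, -0.21 and -0.29. Around MTF1, SLC39A1 and SLC30A1 the medians of the 2B pair were -0.04, -0.035 and 0.02. They were 0.02, 0.04 and 0.10 in the LN pair, and -0.02, 0.06 and 0.36 in the parental pair. The ratio of SLC30A1 itself in the parental pair was -0.04.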
